A study of Mus musculus with 6 samples.

Results

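The transcripts of the proteasome were followed in an RNA immunoprecipitation sequencing (RIP-seq) experiment on cultured mouse B cell progenitors. A gene was included when its name in the deposited values starts with Psma to Psmg and a number, and processed pseudogenes with a -ps name (4 rows) were left out. This gave 50 of 54752 genes, of which 48 had at least 10 FPKM (fragments per kilobase of transcript, scaled to the library) in each of the 3 inputs and were tested together with all 5783 genes that met this level. The 2 others were Psma8, a testis subunit at 0.50 to 0.80 FPKM in the inputs, and Psmb11, the subunit of thymic cortical epithelium, which was listed at 0 in the 3 inputs. Psmc3ip also meets the naming rule but encodes a recombination factor named for its binding to Psmc3, and it is kept apart from the subunits.

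The experiment asked which RNAs are bound by LIN28B, an RNA-binding protein of fetal cells, when it is expressed in adult B cell progenitors. Whole bone marrow of adult mice was kept for 5 days in medium that held IL-7 (20 ng/mL). All cultures, controls included, also received doxycycline (Dox). The tet-LIN28B (transgenic) mice carry 1 copy of a Dox-inducible, Flag-tagged human LIN28B cDNA at the Col1a locus and the rtTA-m2 transactivator at Rosa26, so induction is not limited to B cells. The littermate control carries rtTA and no LIN28B transgene, and its anti-FLAG immunoprecipitate (IP) gives the background of the pull-down. An input and an IP library were made from each of 2 tet-LIN28B mice and 1 control, 6 libraries in all.

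The proteasome is the protease that degrades ubiquitin-tagged proteins. Its barrel, the 20S core, is built of alpha subunits, which form the gate, and beta subunits, some of which carry the proteolytic sites. The 19S particle caps the barrel, binds ubiquitin chains and unfolds substrates with a ring of ATPases, and lymphoid cells replace part of the catalytic beta subunits by the interferon-inducible immunoproteasome subunits, which cut peptides for MHC class I.

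The libraries summed to between 1144868 and 1384941 FPKM, and without counts the depth behind each value is unknown. No pair of libraries held identical values. Mouse Lin28b had 0.62 and 1.03 FPKM in the transgenic inputs against 0.01 FPKM in the control, but the transgene is human, so this is no measure of its level. All 12 B cell progenitor markers listed, among them Cd79a, Vpreb1 and Pax5, were above 1 FPKM in the 3 inputs, and their sums ran from 12109 to 15821 FPKM. Markers of myeloid cells (8 of 8 at or above 1 FPKM in the inputs) summed to 7566 and 4784 FPKM in the transgenic inputs and to 6538 FPKM in the control input. Those of T and NK cells (5 of 8) summed to 161 FPKM in the input of tet-LIN28B mouse 1, against 53.7 and 56.3 FPKM in the inputs of mouse 2 and the control. Erythroid markers (3 of 6) summed to 30.2 to 78.3 FPKM and stromal and endothelial markers (1 of 6, with Dcn at 0) to 9.97 to 12.1 FPKM in the inputs. The part of these cells in the proteasome values was not tested, and in such bulk samples fewer cells of a type cannot be told apart from less RNA per cell. The titles and a figure legend of the study name the tet-LIN28B samples biological replicates, from 2 mice, although its text once calls them technical. With 2 tet-LIN28B mice and 1 control, p-values do not reach beyond these samples. The p-values and SEs also rest largely on a spread pooled across genes, not on that of each gene alone. For Psmb1 the log2 IP/input values of transgenic mouse 1 and 2 were 1.404 and 1.407, yet the SE of their mean was 0.186.

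Proteasome transcripts did not move as a unit. In the IPs of the tet-LIN28B mice some subunit mRNAs were several-fold above their input and others were several-fold below it, with Psmd1 at one end and Psmb2 at the other. The IP/input ratio of FPKM ran from 0.0801 (Psmb2) to 5.74 (Psmd1) in tet-LIN28B mouse 1, a span of 71.7-fold, and from 0.143 (Psmb2) to 4.95 (Psmd1) in mouse 2, a span of 34.5-fold. In the control it ran from 0.623 (Psma6) to 1.37 (Psmd13), a span of 2.21-fold. The SD of the log2 ratio over the 48 genes was 1.22 and 1.08 in the transgenic mice and 0.31 in the control, and over all genes tested it was 1.38, 1.21 and 0.55. The wider spread was seen in both transgenic mice, and over all genes as well. The median SD between the tet-LIN28B mice for one gene was 0.10 over the proteasome transcripts and 0.20 over all genes.

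The mean log2 ratio of the tet-LIN28B mice, taken as log2((IP + 1)/(input + 1)), was tested against 0 with limma, with p adjusted over all genes and a threshold of 0.05. Of the 48 genes, 15 (31.3%) were higher in the IP than in input, against 22.0% of all genes tested. Another 13 (27.1%) were lower, against 43.7% of all genes, and 20 did not pass. The median log2 ratio of the proteasome transcripts was -0.02 in the transgenic mice and -0.22 in the control, and over all genes it was -0.33 and -0.03. On average 7 transcripts exceeded a ratio of 2 (Psmd1, Psmd2, Psmd13, Psmb1, Psmc3, Psmb4 and Psmb9), as did 580 of the 5783 genes tested. A further 7 lay below 0.5 (Psmb2, Psmf1, Psmb3, Psmd5, Psma6, Psmg4 and Psmc2), as did 1764 of the 5783. In the control, 0 of the 48 lay beyond either value, and of all genes tested 199 lay above 2 and 166 below 0.5.

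**Figure D1:**
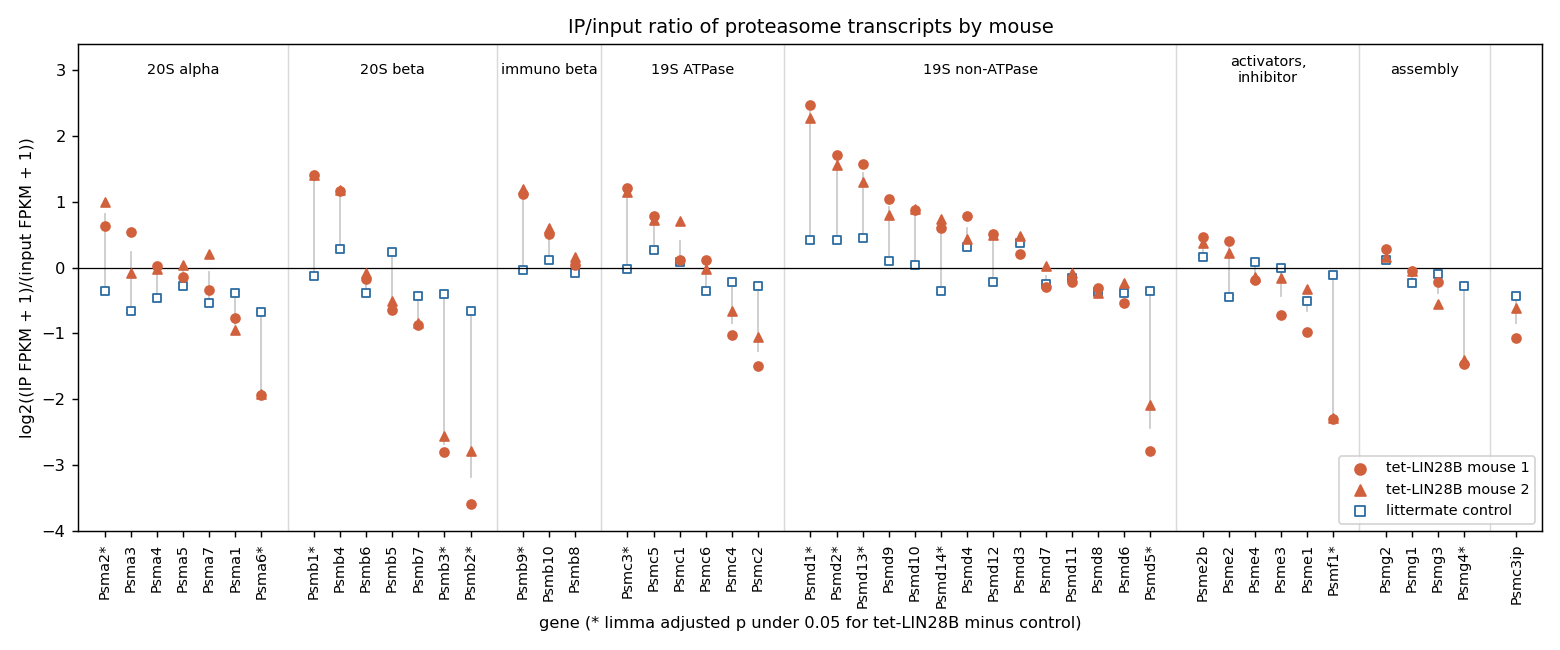
Log2((IP FPKM + 1)/(input FPKM + 1)) of the 48 genes, by class and ordered by the tet-LIN28B mean. Filled symbols are the 2 tet-LIN28B mice, open squares the control, grey lines join the control to the tet-LIN28B mean, and asterisks mark an adjusted p under 0.05 between genotypes. The control squares stay between -0.68 and 0.45, whereas the tet-LIN28B means run from -3.19 (Psmb2) to 2.37 (Psmd1).

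The IP/input ratio was then compared between the tet-LIN28B mice and the control. It was higher with LIN28B for 8 transcripts (16.7%): Psma2, Psmb1, Psmb9, Psmc3, Psmd1, Psmd2, Psmd13 and Psmd14. Over all genes 7.18% were called in this direction. It was lower for 6 transcripts (12.5%): Psma6, Psmb2, Psmb3, Psmd5, Psmf1 and Psmg4. Over all genes 24.8% were called lower, and 34 proteasome transcripts did not pass in either direction. The ratios of both tet-LIN28B mice lay above the control for 27 of the 48 transcripts, against 28.9% of all genes, and below it for 15, against 59.5% of all genes. For 6 the control lay between them. The median log2 difference was 0.21 over the proteasome transcripts and -0.37 over all genes.

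These counts depended on how libraries were scaled. Rescaling each library to an equal sum moved the median difference of all genes by -0.16 and gave 6 transcripts higher and 8 lower. Centring each mouse's log2 ratios on their median moved it by 0.29 and gave 12 higher and 4 lower. Over all genes, 5.27% were called higher and 29.9% lower after rescaling, and 12.2% and 18.6% after centring. Psmd13 and Psmd14 lost their calls after rescaling, and Psma6 and Psmg4 after centring. The sign of the difference did not change for any of the 14 transcripts under any alternative run. With 1 control and 1 residual degree of freedom per gene, the lone control is taken to vary as the transgenic mice do.

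LIN28 proteins bind purine-rich sites, and GGAG is the motif their zinc knuckles contact in let-7 precursors. Stretches of coding sequence around GGAGA are shown for 3 transcripts with a high and 3 with a low IP/input ratio, because the letters occur in both. The windows are 25 nt of coding exon from GENCODE M21 models on GRCm38, 5′ to 3′ on the mRNA strand. Capitals mark the GGAGA at which a window was set, and each is the first one within a single exon. The Psmb2 window also holds the next GGAGA of its coding sequence, left in lower case.
Psmd1: tttgcctgaaGGAGAaaaaaagcca
Psmd2: aagatgaactGGAGAtgctcgtgga
Psmb1: ggcaattgctGGAGAagatttttcc
Psmb2: cctatgtgttGGAGAggctggagac
Psmd5: tctccattctGGAGAggctgctcca
Psmf1: ctgtctctgtGGAGAacggcatgat
They lie in exon 5 of 25 of Psmd1 (chr1:86075845-86075869, plus strand), exon 2 of 21 of Psmd2 (chr16:20652266-20652290, plus strand) and exon 2 of 6 of Psmb1 (chr17:15494490-15494514, minus strand). The others lie in exon 2 of 6 of Psmb2 (chr4:126684162-126684186, plus strand), exon 2 of 10 of Psmd5 (chr2:34866993-34867017, minus strand) and exon 2 of 7 of Psmf1 (chr2:151735487-151735511, minus strand).

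Only the sense strand of 1 transcript model a gene was searched for the letters GGAGA, and no other motif was searched. They occurred in 43 of the 48 transcripts (89.6%), and in 94.4% of the 5260 tested genes with a coding model. The median density was 2.21 copies per kb over the proteasome transcripts and 1.92 over these genes. All 8 transcripts with a higher ratio in tet-LIN28B held the letters, as did 5 of the 6 with a lower ratio and 30 of the 34 others. Their median densities were 2.26, 1.62 and 2.21 copies per kb. Psmb2, with the lowest mean ratio, held 3 copies in its coding sequence, Psmf1, with the next lowest, held 8 in the whole model, and Psmb3, after it, held none. Psmb10 and Psmd10 held none either, although both were higher in the IP than in input. Across the 48 genes the Spearman rank correlation of density with the tet-LIN28B log2 ratio was 0.11, and 0.08 across the 5260 genes, which share the same 4 libraries and are not independent replicates.

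The rank correlation was higher for transcript length than for motif density, a gap that was not tested. That of the number of GGAGA copies with the tet-LIN28B log2 ratio was 0.19 over the 48 genes and 0.31 over the 5260 genes. With the log2 difference between tet-LIN28B and control, the number of copies had 0.14 and 0.20. That of model length with the tet-LIN28B log2 ratio was 0.31 over the 48 genes and 0.35 over all. In the control it was 0.34 and 0.44, and with the log2 difference between tet-LIN28B and control it was 0.29 and 0.20. The 8 transcripts called higher had a median length of 1874 nt (1352 to 3112), the 6 called lower 951 nt (555 to 4397) and the others 1324 nt. Psmd5 and Psmf1, with models of 4397 and 3809 nt, were long and had low ratios. The part of length in the calls was not tested.

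**Figure D2:**
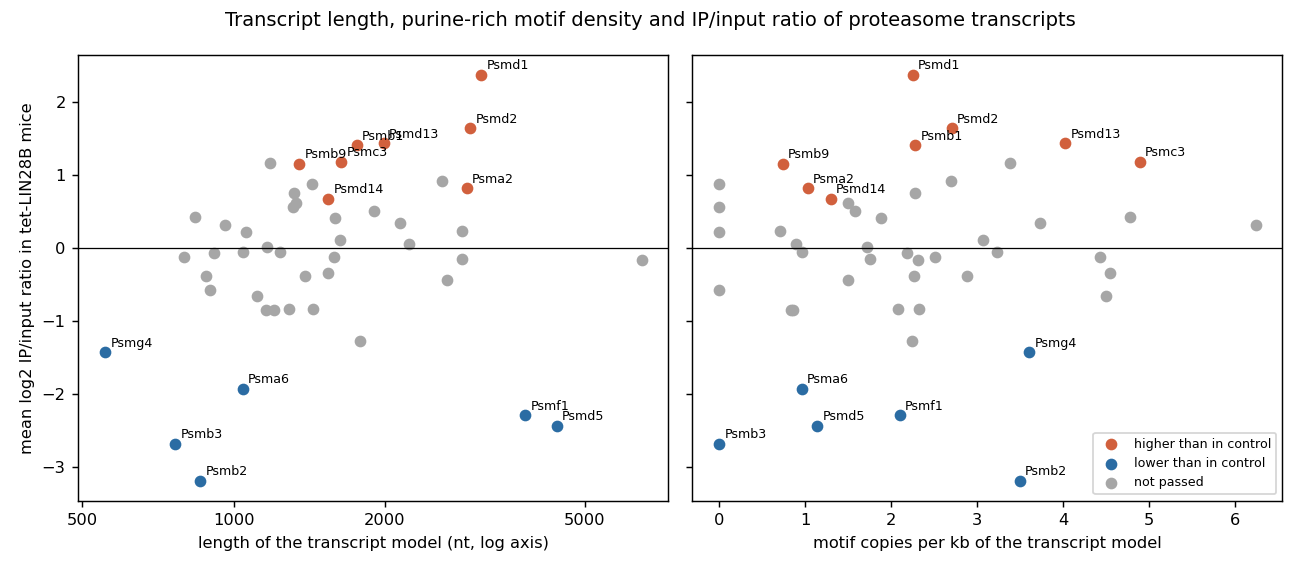
Mean log2 IP/input ratio of the 48 genes in the tet-LIN28B mice against model length (left, nt, log axis) and against copies of GGAGA per kb (right). Points are genes, coloured by their call against the control. The ratio rises loosely with length (rank correlation 0.31), and both colours are spread over the range of motif density (rank correlation 0.11).

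The 19S non-ATPase subunits held the transcripts with the highest ratios. Psmd1, a large scaffold protein of the base (chr1:86064387-86139151), had 23.6 and 31.7 FPKM in the transgenic inputs and 136 and 157 FPKM in the IPs. In the control it had 35.0 FPKM in the input and 47.3 FPKM in the IP, so both tet-LIN28B IPs lay well above the control IP while the inputs were no higher. The ratios were 5.74 and 4.95 with LIN28B and 1.35 without, a log2 difference of 1.95 ± 0.32 (SE, limma adjusted p = 0.00153). Psmd2, the other large scaffold of the base (chr16:20651652-20663414), rose from 121 and 113 FPKM to 401 and 337 FPKM, and in the control 109 FPKM in the input stood against 147 FPKM in the IP. The difference was 1.21 ± 0.32 (adjusted p = 0.0163), with 26.4% of the 50-base stretches of its model also found in transcripts of other genes, so its reads may be split. The 1 gene sharing over 5% of them held at most 0.07 FPKM in any library.

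Psmd13 and Psmd14 belong to the lid, and Psmd14 is the enzyme that cuts ubiquitin chains off the substrate. Psmd13 was at 64.3 and 66.6 FPKM in the transgenic inputs and at 194 and 165 FPKM in the IPs. The control had 71.7 and 98.5 FPKM, and the difference was 0.98 ± 0.32 (adjusted p = 0.0407). Psmd14 was at 80.7 and 85.2 FPKM in the inputs and at 123 and 143 FPKM in the IPs, whereas in the control it was at 96.0 FPKM in the input and 74.6 FPKM in the IP. Its difference was 1.03 ± 0.32 (adjusted p = 0.0306), and the IP was above the input in both tet-LIN28B mice but below it in the control.

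Psmd5, a chaperone that helps to assemble the base and is absent from the finished particle, moved the other way. It was at 32.6 and 26.4 FPKM in the transgenic inputs and at 3.87 and 5.44 FPKM in the IPs. The control had 27.0 and 21.0 FPKM, and the difference was -2.08 ± 0.42 (adjusted p = 0.00414). The other chaperones of the base, Psmd9 and Psmd10, did not share this pattern. Psmd9 had mean ratios of 1.92 with LIN28B and 1.07 in the control, and Psmd10 1.87 and 1.02. Both were higher in the IP than in input (adjusted p = 0.00125 and 0.00142) but missed the threshold against the control (adjusted p = 0.0728 and 0.061).

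Of the 14 non-ATPase genes tested, 8 were higher and 1 was lower in the IP than in input (22.0% and 43.7% of all genes). Against the control 4 were higher and 1 was lower (7.18% and 24.8% of all genes). Besides those above, Psmd4, a ubiquitin receptor, and Psmd12, a lid subunit, were higher in the IP, with ratios of 1.72 and 1.36, and 1.44 and 1.42. Their control ratios were 1.24 for Psmd4 and 0.856 for Psmd12, and neither passed against the control. The lid subunits Psmd6, Psmd7, Psmd8, Psmd11 and Psmd3 had log2 differences from the control between -0.03 and 0.12, and for each the control ratio lay between those of the tet-LIN28B mice. Psmd6 and Psmd8, with mean ratios of 0.767 and 0.786, were the lowest after Psmd5. Psmd6 had inputs of 74.0 and 74.6 FPKM, IPs of 50.9 and 63.2 FPKM and 83.9 and 64.0 FPKM in the control. The median tet-LIN28B log2 ratio was 0.61 over the 9 base subunits with Psm names (Psmc1 to Psmc6, Psmd1, Psmd2 and Psmd4) and 0.11 over the 8 such lid subunits. In the control the base and lid medians were 0.08 and -0.24, and the median log2 differences from the control were 0.41 and 0.07. The gap between base and lid was not tested. Adrm1 of the base and Sem1 of the lid, with mean tet-LIN28B log2 ratios of 1.20 and 1.12, are not counted in these medians.

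The 19S ATPases, which form one ring together, were split. Psmc3 was at 80.1 and 92.9 FPKM in the transgenic inputs and at 187 and 208 FPKM in the IPs, while the control had 87.9 and 86.9 FPKM. Its log2 difference was 1.20 ± 0.32 (adjusted p = 0.0162). Psmc5 was also higher in the IP, at 171 and 192 FPKM against 99.0 and 115 FPKM in the inputs, and at 149 and 124 FPKM in the control IP and input. Psmc2 and Psmc4 were lower in the IP. Psmc2 was at 29.8 and 32.6 FPKM in the inputs and at 9.97 and 15.3 FPKM in the IPs, with 34.2 and 28.0 FPKM in the control, and its difference of -0.99 ± 0.35 just missed the threshold (adjusted p = 0.0524). Psmc4 went from 72.1 and 73.8 FPKM in the inputs to 35.0 and 46.5 FPKM in the IPs, and from 89.8 to 76.8 FPKM in the control. Psmc1 and Psmc6, with mean ratios of 1.36 and 1.04, did not pass either test. The ring thus spanned mean ratios from 0.401 to 2.29 with LIN28B and from 0.778 to 1.21 in the control.

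**Figure D3:**
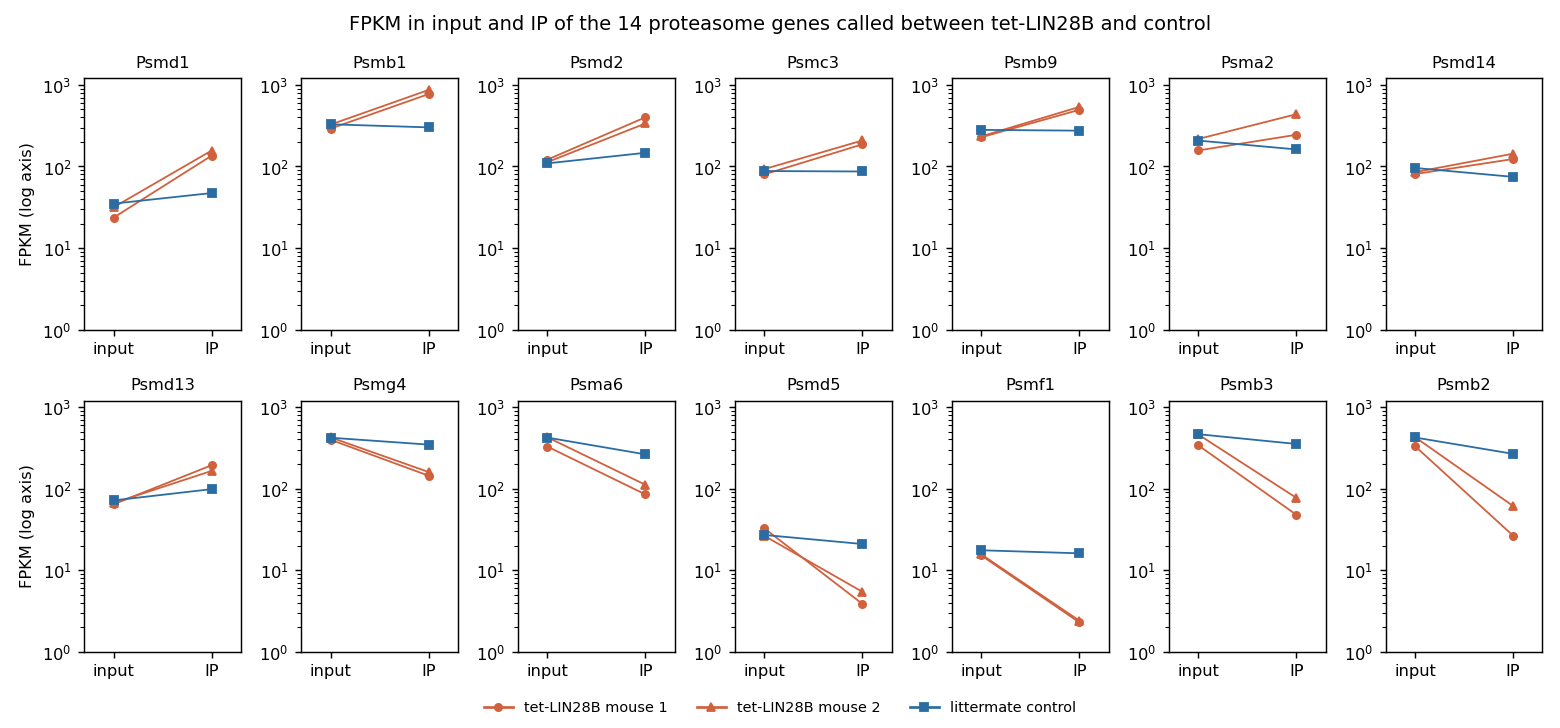
FPKM (log axis) in input and IP for the 14 genes with an adjusted p under 0.05 between genotypes, 1 line a mouse, in order of their difference. The input points of the genotypes lie close together, and the lines of both tet-LIN28B mice leave the control line on the same side, upward in the first 8 panels and downward in the last 6.

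Among the 20S alpha subunits, Psma2 and Psma6 moved apart. Psma2 was at 157 and 217 FPKM in the transgenic inputs and at 245 and 437 FPKM in the IPs, against 208 and 162 FPKM in the control. Its log2 difference was 1.18 ± 0.33 (adjusted p = 0.0221). Psma6, its neighbour of the same ring, was at 327 and 426 FPKM in the inputs and at 84.8 and 111 FPKM in the IPs, and at 422 and 263 FPKM in the control. Both tet-LIN28B ratios (0.259 and 0.262) were below that of the control (0.623), although the control ratio was itself the lowest of the 48, and the difference was -1.25 ± 0.32 (adjusted p = 0.0142).

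Psma1 was lower in the IP, at 119.6 and 125 FPKM against inputs of 204 and 241 FPKM, with 280.3 FPKM in the input and 214 FPKM in the IP of the control. Psma3 had inputs of 639 and 808 FPKM and IPs of 933 and 767 FPKM, so its ratios of 1.46 and 0.949 lay on either side of 1, and the control had 736 and 465 FPKM. Psma4, Psma5 and Psma7 had mean ratios of 1.01, 0.968 and 0.975 and passed neither test. All 7 control ratios of this class were below 1, with a median log2 ratio of -0.47 against -0.03 over all genes. For 5 of 7 both tet-LIN28B mice were above the control, and for 2 both were below it. Over all genes these shares were 28.9% and 59.5%. Psma7 and Psma3 were the most abundant of all 48 in the inputs, at 703 to 805 and 639 to 808 FPKM.

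The constitutive 20S beta subunits had the highest SD of the log2 ratio of any class, at 1.87 and 1.64 in the transgenic mice, although the non-ATPase genes ran over a wider range. Psmb1, a structural subunit without a proteolytic site (chr17:15475021-15499751), was at 291 and 326 FPKM in the transgenic inputs and at 771 and 866 FPKM in the IPs. The control had 329 and 302 FPKM, and the difference was 1.53 ± 0.32 (adjusted p = 0.00538). Psmb4, also structural, had inputs of 252 and 245 FPKM and IPs of 567 and 553 FPKM, with 250.5 and 306 FPKM in the control, and with a difference of 0.88 ± 0.32 it missed the threshold (adjusted p = 0.0572). Psmb2 (chr4:126677630-126709714) was at 331 and 427 FPKM in the inputs and at only 26.6 and 61.3 FPKM in the IPs. In the control 423 FPKM in the input stood against 267 FPKM in the IP, and the difference was -2.52 ± 0.38 (adjusted p = 0.00112). Psmb3 (chr11:97703399-97713500) was at 340 and 461 FPKM in the inputs and at 48.0 and 77.4 FPKM in the IPs, with 465 and 353 FPKM in the control. Its difference was -2.28 ± 0.33 (adjusted p = 0.000851), but 55.8% of its 50-base stretches recur in transcripts of other genes, none of them above 1.65 FPKM in any library among those sharing over 5%. All 4 are structural subunits of one ring, and in the transgenic mice Psmb1 and Psmb4 had ratios of 2.25 to 2.66 and Psmb2 and Psmb3 ratios of 0.0801 to 0.168.

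The 3 catalytic subunits of the constitutive core were at or below their input. Psmb7, the trypsin-like subunit, had inputs of 70.9 and 92.3 FPKM, IPs of 38.4 and 51.1 FPKM and 95.5 and 70.5 FPKM in the control, and was lower in the IP than in input (adjusted p = 0.00178). Psmb5, the chymotrypsin-like subunit, had inputs of 247 and 309 FPKM and IPs of 158 and 216 FPKM and was also lower in the IP (adjusted p = 0.0182), whereas the control had 314 FPKM in the input and 370.1 FPKM in the IP. Its difference of -0.81 ± 0.32 did not pass (adjusted p = 0.0775), and 57.1% of its 50-base stretches are shared. Psmb6, the caspase-like subunit, had inputs of 491 and 599 FPKM, IPs of 435 and 566 FPKM and 615 and 473 FPKM in the control, and passed neither test.

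In both transgenic mice each immunoproteasome subunit had a higher ratio than the constitutive subunit it replaces. Psmb9, which replaces Psmb6, was at 228 and 234 FPKM in the transgenic inputs and at 495 and 537 FPKM in the IPs, against 281 and 275 FPKM in the control. Its log2 difference was 1.19 ± 0.32 (adjusted p = 0.0182), and both tet-LIN28B ratios (2.17 and 2.29) lay above the control ratio of 0.978. Psmb10, which replaces Psmb7, was at 182 and 197 FPKM in the inputs and at 260.5 and 299 FPKM in the IPs, and at 216 and 234 FPKM in the control. It was higher in the IP than in input (adjusted p = 0.0203), with no call against the control (0.44 ± 0.32, adjusted p = 0.315). Psmb8, which replaces Psmb5, was at 176 and 183 FPKM in the inputs and at 181 and 206 FPKM in the IPs, and at 193 and 182 FPKM in the control, and passed neither test.

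Because FPKM is a level per length, the share of the immunoproteasome subunit in its pair could be read in every library. Psmb9 made up 31.7% and 28.1% of Psmb9 plus Psmb6 in the transgenic inputs and 53.2% and 48.7% in the IPs, and 31.3% and 36.8% in the control input and IP. Psmb10 made up 72.0% and 68.1% of its pair in the inputs and 87.2% and 85.4% in the IPs, and 69.3% and 76.9% in the control. Psmb8 made up 41.6% and 37.2% of its pair in the inputs and 53.4% and 48.8% in the IPs, and 38.1% and 33.0% in the control. The log2 ratio of the immunoproteasome subunit exceeded that of its partner by 1.29 and 1.276 for Psmb9, by 1.38 and 1.44 for Psmb10 and by 0.68 and 0.68 for Psmb8 in the tet-LIN28B mice. The same gaps in the control were 0.35, 0.55 and -0.32. For each pair both tet-LIN28B values lay above the control, and with 1 control the gaps were not tested.

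**Figure D4:**
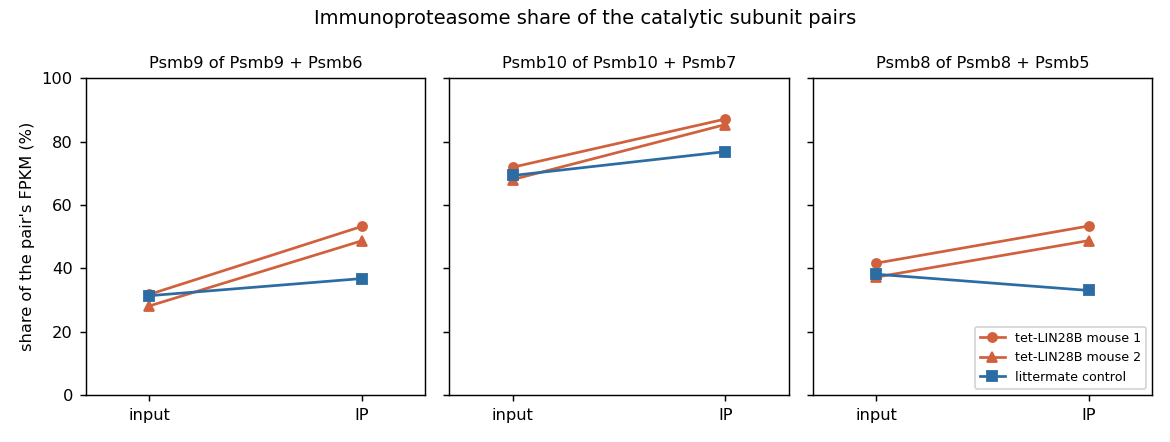
Share (%) of the immunoproteasome subunit in the summed FPKM of each catalytic pair, in input and IP, 1 line a mouse. The 3 inputs lie within a few points of each other in every panel, and both tet-LIN28B IPs are above the control IP, for example 53.2% and 48.7% against 36.8% for Psmb9.

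The activators open the barrel without ATP, and their transcripts passed no test against the control. Psme1 and Psme2 encode the partners of the PA28 ring that interferon induces. Psme1 was at 293 and 324 FPKM in the transgenic inputs and at 148 and 259 FPKM in the IPs, with 338 and 237 FPKM in the control. It was lower in the IP than in input (adjusted p = 0.0183), but the control ratio of 0.701 lay between those of the mice (0.505 and 0.799). Psme2 was at 520 and 599 FPKM in the inputs and at 691 and 698 FPKM in the IPs, with 565 and 415 FPKM in the control, a difference of 0.76 ± 0.33 (adjusted p = 0.101). Psme2b, a retrocopy of Psme2, had inputs of 38.6 and 38.3 FPKM, IPs of 53.7 and 49.9 FPKM and 36.3 and 40.8 FPKM in the control, but 69.3% of its and 59.3% of Psme2's 50-base stretches are shared, so their values are uncertain. Psme3, the nuclear activator, and Psme4, known as PA200, had mean ratios of 0.751 and 0.886.

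Psmf1, which encodes the proteasome inhibitor PI31, was at 15.2 and 15.6 FPKM in the transgenic inputs and at 2.30 and 2.41 FPKM in the IPs. The control had 17.6 and 16.1 FPKM, a ratio of 0.918 against 0.151 and 0.154 with LIN28B. The difference was -2.17 ± 0.47 (adjusted p = 0.00624), from one of the lowest levels in the class.

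The assembly chaperones Psmg1 to Psmg4 help to build the alpha ring. Psmg4 was at 397 and 425 FPKM in the transgenic inputs and at 144 and 159.9 FPKM in the IPs, and at 421 and 346 FPKM in the control. Its difference was -1.15 ± 0.32 (adjusted p = 0.0206). Psmg3, its partner, was at 122 and 169 FPKM in the inputs and at 105 and 116 FPKM in the IPs, and at 159 and 149.6 FPKM in the control, and passed neither test. Psmg1 and Psmg2, which form the other pair, passed neither test. Psmg1 had inputs of 42.6 and 52.0 FPKM, IPs of 41.0 and 50.4 FPKM and 49.8 and 42.0 FPKM in the control. Psmg2 had inputs of 86.7 and 102 FPKM, IPs of 106 and 113 FPKM and 100.3 and 109 FPKM in the control. Psmc3ip, no subunit, was at 40.0 and 36.3 FPKM in the inputs and at 18.5 and 23.5 FPKM in the IPs, with 43.0 and 31.7 FPKM in the control. It was lower in the IP than in input (adjusted p = 0.00323) and did not differ from the control by the test (adjusted p = 0.38).

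By class, the median log2 difference from the control was 0.51 for the 14 non-ATPase genes, 0.47 for the 7 alpha, 0.44 for the 3 immunoproteasome and 0.37 for the 6 ATPase genes. It was -0.42 for the 7 constitutive beta, -0.19 for the 6 activator and inhibitor and -0.09 for the 4 assembly genes. Over all genes tested the median was -0.37, near that of the constitutive beta genes. The signs of the first 5 of these medians were the same after rescaling and after centring, whereas after centring the activators and inhibitor were at 0.10 and the assembly genes at 0.20. The study's filter asks for 50 FPKM in the inputs and IPs of the tet-LIN28B mice and so drops Psmb2, Psmb3 and Psmb7. With it the constitutive beta median was 0.57. The median over all genes was -0.53 after rescaling, -0.08 after centring and 0.07 with the study's filter. The classes differed in abundance too: in the inputs the median of the 17 core genes was 247 to 281 FPKM and that of the 20 genes of the 19S particle was 73.0 to 85.3 FPKM.

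The level of the proteasome transcripts before the pull-down did not differ between genotypes by the test. In the inputs 0 of the 48 passed with limma, 0 had an unadjusted p under 0.05, and 0.0173% of all genes (1 gene, and 397 at an unadjusted p under 0.05) were called. The log2 differences in input, tet-LIN28B minus control, all use the 1 control input, and their signs were not counted over all genes. The difference was below 0 for 43 of the 48 and above 0 for 5, with a median of -0.13 against -0.07 over all genes. It ran from -0.35 for Psmd1 to 0.11 for Psmd5, and since the input is the denominator of the ratio, these differences are part of the ratio differences above. The 50 genes held 0.623% and 0.695% of the FPKM in the transgenic inputs and 0.694% in the control input. In the IPs they held 0.711% and 0.824%, and 0.698% in the control.

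Other genes of the pathway were read from lists of 46 genes, of which 38 were tested. Against the control 4 had a higher and 4 a lower ratio with LIN28B, beside 7.18% and 24.8% of all genes. Among partners and deubiquitinases of the proteasome, 2 of 9 were higher and 0 were lower. Adrm1, a ubiquitin receptor of the 19S base, had ratios of 2.29 and 2.33 and of 1.00 in the control (difference 1.19 ± 0.32, adjusted p = 0.0166). Sem1, the smallest lid subunit, had ratios of 2.29 and 2.08 and of 0.949 in the control (1.20 ± 0.33, adjusted p = 0.0187). Both are 19S subunits under other names. Pomp, the maturation factor of the core, was higher in the IP than in input but not called against the control (0.60 ± 0.36, adjusted p = 0.226).

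Ubiquitin genes parted as well. Ubb, which encodes a chain of ubiquitins, was at 839 and 936 FPKM in the transgenic inputs and at 124 and 201 FPKM in the IPs, with 1119.8 and 818 FPKM in the control (-2.03 ± 0.35, adjusted p = 0.00217). Rps27a, which encodes ubiquitin fused to a ribosomal protein, was at 5340 and 5273 FPKM in the inputs and at 20661 and 15770 FPKM in the IPs, with 4521 and 5932 FPKM in the control (1.37 ± 0.35, adjusted p = 0.0148). Uba1, the activating enzyme, was lower in the IP than in input and missed the threshold against the control (adjusted p = 0.054).

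Of 9 shuttle receptors and p97 cofactors 1 was higher against the control, Vcp itself, the p97 unfoldase, with ratios of 2.69 and 3.55 and of 1.40 in the control (1.13 ± 0.33, adjusted p = 0.0257). Of 7 regulators of proteasome genes 1 was lower, Nlrc5, the transactivator of MHC class I genes, with ratios of 0.409 and 0.422 and of 1.45 in the control (-1.68 ± 0.37, adjusted p = 0.0071). Nfe2l1, the factor that raises proteasome gene transcription, was higher in the IP with ratios of 3.03 and 2.80, but the control ratio was 2.17. Of 8 genes of MHC class I peptide loading 2 were lower and 0 higher, a share of lower calls near the 24.8% of all genes. B2m, the light chain of class I, was at 2832 and 3873 FPKM in the transgenic inputs and at 287 and 451 FPKM in the IPs, with 3491 and 1979 FPKM in the control (-2.38 ± 0.33, adjusted p = 0.000771). Tapbp had ratios of 0.787 and 0.696 and of 1.70 in the control (-1.18 ± 0.32, adjusted p = 0.0174).

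**Figure D5:**
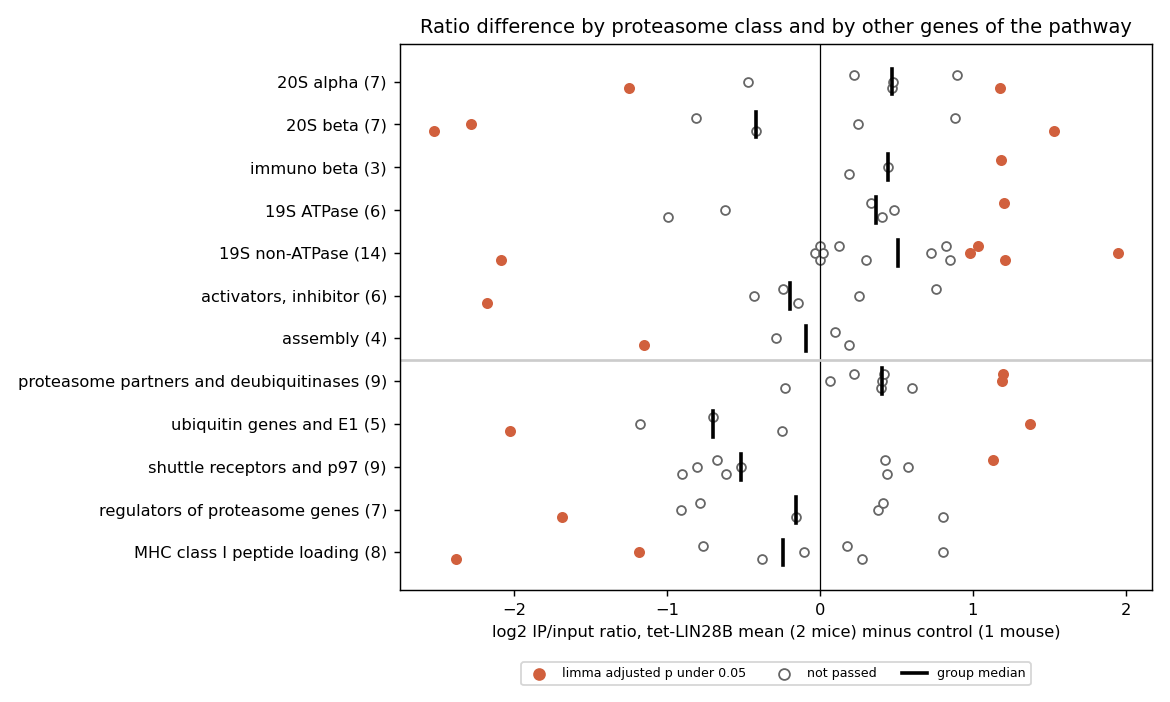
Difference of the log2 IP/input ratio, tet-LIN28B mean minus control, for the proteasome classes (above the line) and other pathway lists (below it), 1 point a gene, with the number of genes in brackets. Filled points passed limma at an adjusted p under 0.05. Bars are medians, which among the proteasome classes run from 0.51 for the 19S non-ATPase genes to -0.42 for the constitutive beta genes. The median over all genes tested, not drawn, is -0.37.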

How the data were processed

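RNA was extracted from inputs and anti-FLAG IPs, and cDNA was made with a SMART-Seq kit. Per the labels' processing notes, the authors used STAR 2.7.1, RSEM 1.28 and mm10, and they deposited FPKM values per gene, so differences are relative within a library. Their annotation release was not given in the sources used here. Libraries were grouped by their titles, since the last line of each description names the opposite fraction.

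With limma 3.58.1 (R 4.3.3), log2((IP + 1)/(input + 1)) per mouse was fitted on genotype, moderated with a trend, for genes with at least 10 FPKM in the 3 inputs. Input and IP come from the same mouse, and the mouse differences in input and IP correlated at 0.302 across genes. Inputs were fitted as log2(FPKM + 1). P-values were adjusted by Benjamini-Hochberg at 0.05. The fits were also run on simulated data with noise drawn independently for each library, unlike the correlated mouse differences here. That run therefore does not measure how often calls in these data are false. Gene models were those of GENCODE M21 on GRCm38. Alternatives changed the filter, pseudocount, scaling, trend and replicate block. The members, classes and lists were chosen with earlier results of these data known, values in every library were given for the called members, the 2 highest and 2 lowest of each class and the catalytic pairs, and the left-out shared genes were added after seeing the data. Some genes of the lists are not reported here by name.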

Additional observations from a re-analysis of the deposited data

Results flagged for a closer look

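The 14 proteasome transcripts whose IP/input ratio differed between tet-LIN28B and control by the limma contrast are set out here by size of the log2 difference. The 8 with a higher ratio were Psmd1 at 1.95, Psmb1 at 1.53, Psmd2 at 1.21, Psmc3 at 1.20, Psmb9 at 1.19, Psma2 at 1.18, Psmd14 at 1.03 and Psmd13 at 0.98. The 6 with a lower ratio were Psmb2 at -2.52, Psmb3 at -2.28, Psmf1 at -2.17, Psmd5 at -2.08, Psma6 at -1.25 and Psmg4 at -1.15. Both tet-LIN28B mice lay on the named side of the control for each, but the 14 were picked by this same contrast. Among all 48 proteasome genes tested, both mice were on the same side of the control for 42, above it for 27 and below it for 15. Over all genes tested, both were above it for 28.9% and below it for 59.5%. No group held 4 samples, so single samples were not tested as outliers.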

How the results depend on the processing

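None of the 14 calls between genotypes changed sign, and 10 were kept under every alternative that tested the gene, other than the fits with no filter and with no replicate block. The study's filter left 32 proteasome genes, of which 7 were lower in the IP than in input and 3 were lower than in the control, since it drops genes with a low IP. With no filter on low values 0 genes passed in any of the 4 counts, although 27 (IP against input) and 18 (against the control) of the 50 had an unadjusted limma p under 0.05. With no replicate block, which ignores that input and IP share a mouse, 2 (Psmb1, Psmd1) were higher and 3 (Psmb3, Psmd5, Psmf1) lower than in the control. Over all genes this fit called 2.37% higher and 10.2% lower. The cause of the lost calls was not tested. Psmd13 also lost its call with a pseudocount of 0.1 and without the trend. Calls were gained by Psmb4 (4 alternatives), Psmb5 (3), Psmc2 (a pseudocount of 5, rescaling), Psma3 (both 50 FPKM filters), Psmd12 (the study's filter, centring), and Psmd9 and Psmd10 (centring).

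The median tet-LIN28B log2 ratio of -0.02 became 0.16 with the study's filter, 0.0082 with 50 FPKM in the inputs, 0.085 after rescaling and 0.30 after centring, and ran from -0.011 to 0.0088 without either mouse. The median difference of 0.21 became 0.37, 0.25, 0.041 and 0.50, and ran from 0.15 to 0.23. Without genes sharing over 10% of their 50-base stretches, 7 were higher and 5 lower. With FPKM alone, the depth behind low IP values such as those of Psmf1 and Psmd5 is unknown.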
